A study of Mus musculus with 4 samples.

Results

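Cluster 146, named Rxfp1/Ebf2 in the authors' annotation, holds 58 of the 12539 neurons among 39461 kept nuclei of the mouse posterior hindbrain. Its members are all nuclei that passed the authors' quality filter, carry the cell type Neurons and belong to that cluster. *Rxfp1*, *Ebf2* and *Th* were taken as its markers. Single-nucleus libraries were made with the 10x Genomics 3′ kit, and a unique molecular identifier (UMI) count stands for 1 captured transcript. There were 2 control libraries and 2 AgRP-Gq;POMC-Gi libraries. AgRP-Gq;POMC-Gi mice were AgRP-IRES-Cre+/-;hM3DGqfl/-;POMC-Dre+/-;hM4DGifl/-, so that an activating receptor (hM3DGq) sits in AgRP neurons and an inhibitory one (hM4DGi) in POMC neurons, both of the hypothalamus. Controls, labelled WT, carry, by the study's methods, both receptor alleles but neither AgRP-IRES-Cre nor POMC-Dre. All mice were C57BL/6, aged 12 to 20 weeks and of both sexes, and all received clozapine-N-oxide (CNO, the ligand of both receptors) at 3 mg per kg, with tissue taken 1 h later. Mice of a condition were pooled, with 2 mice per group by the study's methods. The mice behind each library are not stated, so p-values measure only the spread between these libraries.

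EBF proteins are helix-loop-helix transcription factors that direct neuronal differentiation, and *Ebf1*, *Ebf2* and *Ebf3* often occur in the same neurons. *Rxfp1* encodes the receptor of relaxin, which acts through Gs proteins and cyclic AMP. *Th* encodes tyrosine hydroxylase, the rate-limiting enzyme of catecholamine synthesis, but *Th* transcripts also occur in neurons that lack the later enzymes of that pathway.

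The libraries contributed 9 and 8 nuclei from controls and 15 and 26 nuclei from AgRP-Gq;POMC-Gi mice. Their UMIs summed to 56229, 49255, 94392 and 157634 in the same order, which puts 3 UMIs, the limit that a count of 0 allows, at between 19.0 and 60.9 CPM (UMIs of a gene per 1000000 UMIs of the sum) in a single library. The median nucleus had 5793 UMIs and 2586 genes, against 8717 UMIs and 3569 genes in the other 12481 neurons, and single nuclei ranged from 1312 to 12690 UMIs. None of the 58 nuclei had a barcode that occurs in another library, as 336 of the 39461 kept nuclei did. *Xist*, the RNA that coats the silenced X in female cells, had 0 UMIs in the cluster in AgRP-Gq;POMC-Gi replicate 2 against 78, 27 and 71 in control replicates 1 and 2 and AgRP-Gq;POMC-Gi replicate 1, so the former library stands apart. Over all neurons *Xist* was at 541 CPM in AgRP-Gq;POMC-Gi replicate 1 and 16.2 CPM in replicate 2, so these libraries did not hold the same mix of female and male nuclei, and their spread is not technical alone. Intervals and detection limits cover counting error only.

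The neuronal label was checked against its markers. *Snap25*, a synaptic vesicle fusion protein, was found in 100% of the nuclei at 719 ± 46.8 CPM (SD, n = 4 libraries), and *Rbfox3*, which encodes the neuronal nuclear antigen NeuN, in 79.3% at 408 ± 34.6 CPM. All 5 neuronal markers together were lower than elsewhere, at 2508 and 2030 CPM (controls) and 2415 and 2068 CPM (AgRP-Gq;POMC-Gi). Other neurons had 3151 to 3260 CPM. *Elavl4* was at least 2-fold below them in every library, and 0 of the 5 were at least 2-fold above. Markers of oligodendrocytes, the myelin-forming cells, were also found. The 6 markers summed to 445 and 508 CPM in the control libraries and to 148 and 355 CPM in the AgRP-Gq;POMC-Gi libraries, against 103 to 211 CPM in the other neurons. *Mog*, a protein of the myelin surface, was at 38.4 ± 15.6 CPM, and each of the 6 had UMIs in at least 2 libraries. Astrocyte markers summed to 71.1 and 81.2 CPM (controls) and 138 and 171 CPM (AgRP-Gq;POMC-Gi). The matching sums of other neurons were 84.3, 58.7, 45.9 and 62.9 CPM, so only control replicate 1 was lower. Of the markers of precursors, vessels, fibroblasts and ependyma, only *Vcan* was frequent enough in neurons to be counted, and it had no UMI in the cluster. Of the microglial markers *P2ry12* was at 125 ± 48.2 CPM, as in the other neurons (125 CPM), and *Cx3cr1* at 4.76 ± 9.52 CPM. *Ttr*, a choroid plexus transcript, had 1, 67, 0 and 131 UMIs in the 4 libraries (552 ± 664 CPM against 398 CPM in the other neurons), and was high in replicate 2 of either group.

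All 3 genes chosen as markers were above the other neurons in every library. *Rxfp1* (chr3:79641611-79737880, minus strand, GRCm38) was at 124 and 528 CPM in control replicates 1 and 2 and at 286 and 317 CPM in AgRP-Gq;POMC-Gi replicates 1 and 2. The mean of 314 ± 166 CPM was 51.0-fold that of the other neurons (5.18 ± 2.20 CPM). It was the highest level of the 134 neuronal clusters, followed by 140 CPM in cluster 117. *Ebf2* (chr14:67233292-67430918, plus strand) was at 1014, 1259, 1515 and 1370 CPM in the same library order, 19.2-fold above the other neurons. Its level ranked 3 of 134, below cluster 129 with 2062 CPM. *Th* (chr7:142892752-142931128, minus strand) was at 35.6, 60.9, 63.6 and 108 CPM, with a mean of 67.0 ± 30.0 CPM against 3.14 ± 1.13 CPM in the other neurons. It also ranked 3, behind cluster 63 with 107 CPM. Since the clusters were built from these same counts, these and the other comparisons with the remaining neurons are descriptions without a test, and folds are ratios of mean CPM after adding 1 CPM to each.

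Detection per nucleus followed these levels. An *Ebf2* UMI was found in 54 of 58 nuclei (93.1%, exact 95% Clopper-Pearson interval 83.3 to 98.1%), an *Rxfp1* UMI in 31 (53.4%, 39.9 to 66.7%) and a *Th* UMI in 17 (29.3%, 18.1 to 42.7%). In oligodendrocytes, which should lack them, the shares were 0.172%, 0.0476% and 0.0476% at a median of 2460 UMIs per nucleus, against 5793 in the cluster. After each nucleus was thinned to 2000 UMIs, which left out 1 nucleus of the cluster, the shares were 80.7% for *Ebf2*, 36.8% for *Rxfp1* and 17.5% for *Th*, and in 2000 thinned nuclei of other neurons 8.3%, 0.85% and 0.6%. All 31 nuclei with an *Rxfp1* UMI also had an *Ebf2* UMI. *Th* was found in 8 of the 31 nuclei with *Rxfp1* (25.8%) and in 9 of the 27 without it (33.3%). Only 3 nuclei had at least 3 *Th* UMIs, so that a nucleus without a *Th* UMI is not shown to lack the transcript. The 4 nuclei with no *Ebf2* UMI had 1312 to 3610 UMIs in all. Together they held 45 of the 120 oligodendrocyte marker UMIs of the cluster, whose median nucleus had 1. Of the 45, 31 lay in 1 nucleus and 13 in another, while a nucleus of control replicate 2 with 3 *Ebf2* UMIs held 16.

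**Figure D1:**
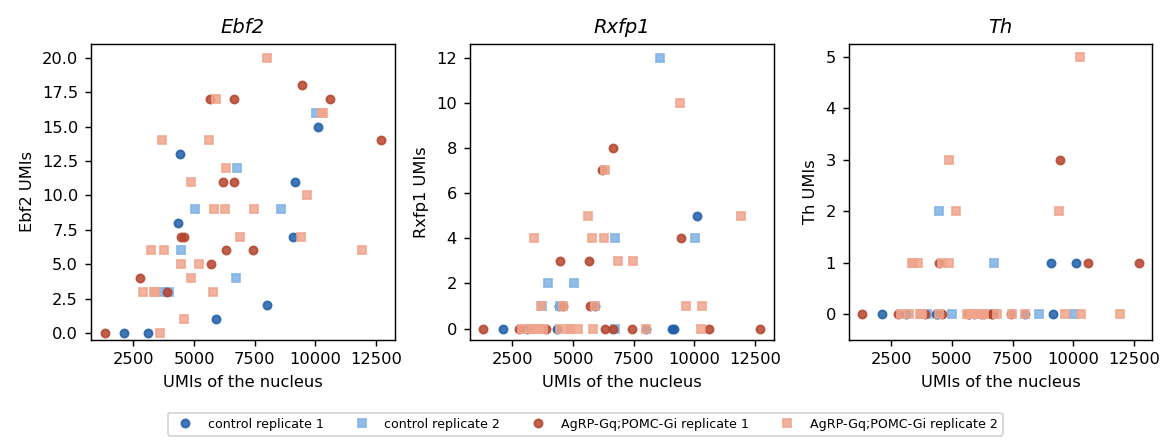
UMIs of Ebf2, Rxfp1 and Th in each of the 58 nuclei (vertical axes, UMIs) against the total UMIs of the nucleus (horizontal axes), coloured by library. Ebf2 reaches 20 UMIs and is missing in 4 nuclei, Rxfp1 reaches 12 and Th 5, and nuclei with and without Rxfp1 or Th occur in all 4 libraries.

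The cluster carried other transcription factors of the same kind. *Ebf1* was its highest member of the EBF family, at 6367 and 8304 CPM in the controls and 6399 and 5950 CPM in the AgRP-Gq;POMC-Gi libraries, 13.2-fold the other neurons and the highest of 134 clusters. *Ebf3* was at 463 ± 74.6 CPM against 95.9 CPM. *Ebf4* was nearly missing (1.59 CPM against 25.7 CPM in other neurons). *Zfp521* and *Zfp423*, zinc finger proteins known to bind EBF factors, were at 228 ± 95.9 and 79.9 ± 28.8 CPM against 133 and 63.6 CPM. Genes counted here are those detected in 5% or more of the cluster's nuclei or of the other neurons, and of all 12561 such genes 238 (1.89%) were at least 2-fold above and 907 (7.22%) at least 2-fold below the other neurons in 4 of 4 libraries, with a median log2 ratio of -0.15. Among EBF factors and partners 3 of 6 were at least 2-fold above, namely *Ebf1*, *Ebf2* and *Ebf3*, and *Ebf4* was below.

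Of 43 counted factors that mark hindbrain and spinal lineages, 5 were above and 13 below in every library, with a median log2 ratio of -1.41. The 5 were *Prrxl1*, *Mafa*, *Satb1*, *Nr2f1* and *Rorb*. *Prrxl1* (also called *Drgx*), which is needed by dorsal sensory relay neurons, was at 53.4, 142, 74.2 and 88.8 CPM in the 4 libraries against 5.10 CPM in other neurons. *Mafa*, a basic leucine zipper factor, was at 65.2 ± 36.7 CPM against 1.55 CPM. *Lmx1b*, a LIM homeodomain factor of dorsal excitatory neurons, varied little between libraries, at 83.1 ± 9.91 CPM against 15.8 CPM. *Tlx3*, which selects the excitatory over the inhibitory fate in the dorsal hindbrain and cord, had 2, 0, 2 and 5 UMIs (22.1 ± 15.9 CPM against 4.20 CPM). Factors of inhibitory lineages were low: *Pax2* had no UMI in the 58 nuclei, and *Pax8*, *Lhx1* and *Lhx5* were also among the 13 below. No Hox gene was at least 2-fold above or below in all libraries. The highest were *Hoxb3* at 63.1 ± 49.4 CPM, *Hoxb2* with 5, 3, 2 and 9 UMIs and *Hoxb4* at 55.8 ± 34.5 CPM, and the median log2 ratio of the 12 counted was 0.96.

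The transmitter genes were those of glutamatergic neurons. *Slc17a6*, which loads glutamate into vesicles, was found in 51.7% of the nuclei, at 71.1 and 60.9 CPM in the controls and 117 and 152 CPM in AgRP-Gq;POMC-Gi mice. Its mean of 100 ± 42.3 CPM was close to that of the other neurons (75.9 CPM) and ranked 62 of 134 clusters. *Gad2*, an enzyme of GABA synthesis, had no UMI in any of the 58 nuclei, for which 3 nuclei set a limit of 5.17% and the exact 95% Clopper-Pearson interval reaches 6.16%, both for detection and not for expression, while 38.7% of the other neurons had one. *Slc32a1*, the vesicular GABA and glycine transporter, was found in 1 nucleus. In 8 counted genes of GABA and glycine synthesis and transport the median log2 ratio was -2.10, and *Gad1*, *Gad2* and *Slc6a5* were at least 2-fold lower in every library.

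*Th* was the only gene of catecholamine synthesis and transport at least 2-fold above the other neurons in all libraries, of 7 counted. *Dbh*, which makes noradrenaline from dopamine, had 0 UMIs, and *Ddc*, which makes dopamine from the product of tyrosine hydroxylase, had 1 UMI in 1 nucleus. That share of 1.72% lies below the 4.84% of other neurons and the 10.2% of oligodendrocytes with a *Ddc* UMI. *Gch1*, which makes the cofactor of the enzyme, and *Slc6a2* and *Slc6a3*, the noradrenaline and dopamine transporters, had no UMI either. *Slc18a2*, the vesicular monoamine transporter, was found in 11 nuclei at 33.1 ± 11.2 CPM against 23.0 CPM in the other neurons. Of the genes in the study's comparison of *Th* clusters, *Gfral*, *Sctr*, *Calcr* and *Prlh* had no UMI in these nuclei.

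**Figure D2:**
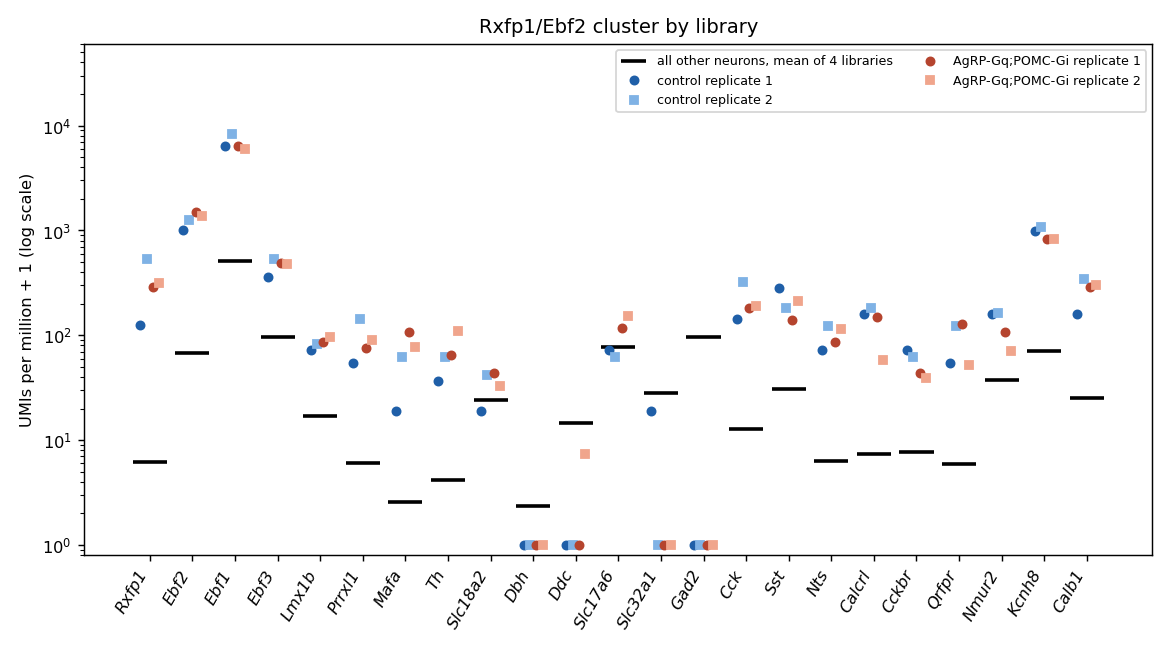
CPM + 1 (vertical log axis) of 23 genes in the cluster in each of the 4 libraries (points) and the mean of all other neurons (black bars). Rxfp1, Ebf factors, Th and the peptides Cck, Sst and Nts lie above the bar in all 4 libraries, Gad2 and Dbh at 0 in all 4, and Slc17a6 on both sides of its bar.

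The genes that set the cluster apart were ordered by their ratio to the other neurons. Of 3539 genes detected in 25% or more of its nuclei, 65 (1.84%) were at least 4-fold above the other neurons in 4 of 4 libraries, and 28 of the 65 were highest in this cluster among the 134. The 25 genes with the largest ratios among those above the other neurons in 4 of 4 libraries ran from 11.4-fold to 68.6-fold. The first was *Lama4*, a laminin chain of basement membranes, with 178, 325, 275 and 222 CPM in the 4 libraries against 2.66 CPM in the other neurons, and the next cluster reached 36.3 CPM. *Sntb1*, a syntrophin of the dystrophin complex, was at 661 ± 155 CPM (29.9-fold). *Adamtsl1*, a secreted matrix protein, was at 1348 ± 212 CPM (24.3-fold). *Scara5*, a ferritin receptor, was at 118 ± 89.7 CPM (18.5-fold). *Corin*, the protease that activates natriuretic peptides, was at 123 ± 53.5 CPM (18.3-fold). *Kit*, the receptor tyrosine kinase for stem cell factor, was found in 74.1% of nuclei at 267 ± 69.8 CPM (12.4-fold). Among calcium-dependent membrane proteins, *Mctp2* stood at 332 ± 49.0 CPM (23.2-fold) and *Cpne8*, a copine, at 1111 ± 269 CPM (19.9-fold). Cluster 148 had more *Cpne8* (1224 CPM) and reached 242 CPM for *Mctp2* and 46.9 CPM for *Scara5*. The next clusters reached 490 CPM for *Sntb1* (cluster 181), 899 CPM for *Adamtsl1* (cluster 63), 97.4 CPM for *Corin* (cluster 171) and 213 CPM for *Kit* (cluster 157). The remaining uncharacterized transcripts among the 25 were *AU023762* (127 ± 19.6 CPM) and *Gm1715* (373 ± 179 CPM).

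Of these 25 genes, 4 lie at 1 locus of chromosome 14. *Gm6878* (chr14:67304888-67314711), *1700120O09Rik* (chr14:67324894-67335928) and *4930438E09Rik* (chr14:67332042-67397742) are annotated on the minus strand within the span of *Ebf2*, and *4930438E09Rik* reached 425 ± 114 CPM. *Gm12158* lies antisense within *Ebf1* in the same way and was at 163 ± 48.0 CPM. How the counting handled strand was not checked, so the levels of these antisense genes are uncertain.

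Promoter sequence was at hand for 12 of the 25 genes, as RefSeq windows of 250 bases before to 50 after the start on GRCm38.p6. They were searched for CCCNNGGG, the core of the site that EBF factors bind, which reads the same on both strands. The motif was in the windows of 5 of the 12 genes and of 15.4% of the 27025 genes in the table. A match is a description of letters, not a binding site. The windows of *Prrxl1* (chr14:32599677-32599976, plus strand, 2 overlapping matches), *Cck* (chr9:121495645-121495944, minus strand), *Kcnh8* (chr17:52602459-52602758, plus strand) and *Th* (chr7:142899946-142900245, minus strand, no match) are shown because they cover a lineage factor, the leading peptide, the leading channel and a gene taken as a marker of the cluster. Capitals mark the matches.
Prrxl1: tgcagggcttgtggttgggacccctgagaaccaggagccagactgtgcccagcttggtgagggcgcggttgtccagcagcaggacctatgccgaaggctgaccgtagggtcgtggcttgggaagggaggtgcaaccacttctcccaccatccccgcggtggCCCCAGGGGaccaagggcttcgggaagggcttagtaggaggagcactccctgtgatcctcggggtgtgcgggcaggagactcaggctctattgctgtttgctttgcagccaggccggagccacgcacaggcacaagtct
Cck: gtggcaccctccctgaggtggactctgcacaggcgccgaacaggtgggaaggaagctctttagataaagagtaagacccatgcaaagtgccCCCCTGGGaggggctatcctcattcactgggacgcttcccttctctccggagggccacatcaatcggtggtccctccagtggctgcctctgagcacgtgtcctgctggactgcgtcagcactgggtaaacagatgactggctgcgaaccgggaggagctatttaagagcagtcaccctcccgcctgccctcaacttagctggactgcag
Kcnh8: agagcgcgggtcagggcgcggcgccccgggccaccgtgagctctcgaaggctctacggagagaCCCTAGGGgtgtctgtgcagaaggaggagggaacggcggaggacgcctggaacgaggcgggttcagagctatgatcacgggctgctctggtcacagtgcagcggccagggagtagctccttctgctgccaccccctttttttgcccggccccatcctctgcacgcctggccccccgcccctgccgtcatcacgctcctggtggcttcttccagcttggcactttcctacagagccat
Th: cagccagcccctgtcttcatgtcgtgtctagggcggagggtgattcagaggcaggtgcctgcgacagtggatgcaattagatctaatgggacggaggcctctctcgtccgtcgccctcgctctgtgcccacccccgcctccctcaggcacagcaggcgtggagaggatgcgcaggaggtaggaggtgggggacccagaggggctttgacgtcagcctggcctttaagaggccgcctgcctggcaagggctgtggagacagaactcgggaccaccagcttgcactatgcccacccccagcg

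Peptide transcripts were prominent. Of 17 counted neuropeptide genes 5 were at least 2-fold above and 2 below in all libraries, beside 1.89% and 7.22% of all counted genes. *Cck*, cholecystokinin, was at 142 and 325 CPM in the controls and 180 and 190 CPM in the AgRP-Gq;POMC-Gi libraries, the highest of 134 clusters, and found in 60.3% of the nuclei. *Sst*, somatostatin, was found in 62.1% at 204 ± 61.5 CPM against 29.7 CPM. *Nts*, neurotensin, was found in 27.6% at 98.0 ± 24.0 CPM against 5.40 CPM, second to cluster 63. *Cbln1*, a synaptic organizer of the precerebellin family, was at 31.2 ± 14.1 CPM, and *Scg2*, a granin of dense-core vesicles, was at 371 ± 96.7 CPM. *Cck* and *Sst* UMIs occurred together in 21 nuclei, *Sst* being present in 60.0% of nuclei with *Cck* and in 65.2% of those without. In oligodendrocytes 2.35% of nuclei had a *Cck* UMI and 5.77% a *Sst* UMI. *Agrp* was at 47.1 ± 41.7 CPM, lower than the 88.1 CPM of other neurons. The 2 peptide genes below were *Bdnf* and *Cbln4*.

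*Rxfp1* was the only member of the relaxin family with a UMI, of 9 relaxin peptides and receptors in the files. Among 33 counted genes of cyclic AMP signalling, the pathway of that receptor, 3 were above and 5 below in every library. The shares of all counted genes were 1.89% and 7.22%, and the median log2 ratio of the 33 was -0.06. *Adcy2*, an adenylyl cyclase, was even between libraries, at 854 ± 29.2 CPM against 195 CPM. *Pde4b* and *Pde11a*, phosphodiesterases that degrade cyclic AMP, were at 1473 ± 244 and 381 ± 206 CPM. *Gnas*, which encodes the Gs protein itself, was among the 5 below, at 314 ± 39.5 CPM against 703 CPM.

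Of 35 counted receptors for hormones and feeding-related peptides, 3 were above and 7 below in all libraries. *Calcrl*, the receptor subunit for CGRP and adrenomedullin, was at 160, 183, 148 and 57.1 CPM in the 4 libraries against 6.45 CPM. Its partner *Ramp3* had 2, 0, 6 and 5 UMIs, while *Ramp1* and *Ramp2* had none. *Cckbr*, a receptor of the peptide that the cluster also carries, was at 53.1 ± 15.6 CPM against 6.74 CPM. *Qrfpr*, the receptor of the peptide QRFP, was at 88.3 ± 41.9 CPM against 4.98 CPM. *Nmur2*, a neuromedin receptor, was at 125 ± 44.9 CPM and second among the clusters, yet less than 2-fold above the other neurons in at least 1 library. The 7 below were *Lepr*, *Igf1r*, *Trhr*, *Hcrtr2*, *Oprk1*, *Cnr1* and *Esr1*, and *Glp1r* and *Mc4r* had no UMI. Of 19 counted monoamine and acetylcholine receptors 0 were above in every library and 5 were below, beside 1.89% and 7.22% of all counted genes.

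Receptor and channel genes are set beside the 1.89% above and 7.22% below of all counted genes. Of 23 glutamate receptor genes 3 were above and 7 below, and those below included 3 of the kainate type. *Grm5*, a metabotropic receptor, was at 3736 ± 397 CPM against 1310 CPM. *Grin2a*, an NMDA receptor subunit, was at 2514 ± 283 CPM, the highest of 134 clusters. *Grik1*, a kainate receptor subunit, had 1 UMI in the cluster against 360 CPM in the other neurons, the first in order of deficit among genes found in at least 25% of the other neurons. Of 17 GABA and glycine receptor genes 2 were above and 2 below. Those above were *Gabra5* and *Glra3*, which encode inhibitory receptor subunits. They were at 304 ± 86.1 and 362 ± 72.0 CPM against 70.6 and 111 CPM. Of 53 potassium channel genes 4 were above and 6 below. *Kcnh8* was at 978, 1076, 837 and 825 CPM and *Kcnq3*, an M-current subunit, at 1879 ± 363 CPM, both the highest of 134 clusters, while *Kcnq5* of the same M-current family had 1 UMI against 533 CPM. Of 48 sodium, calcium, HCN and TRP channel genes 2 were above and 4 below. Those above were *Cacna2d1* and *Trpm3*, at 1802 ± 359 and 2362 ± 591 CPM. Of 12 calcium-binding protein genes 2 were above and 0 below. *Calb1* was at 272 ± 79.1 CPM against 24.1 CPM and found in 70.7% of nuclei, and *Necab2* was at 114 ± 59.7 CPM against 15.9 CPM.

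Adhesion and guidance genes are read against the 1.89% above and 7.22% below of all counted genes. Of 55 axon guidance genes 2 were above, *Plxna2* (737 ± 221 CPM) and *Nrp1* (451 ± 71.8 CPM against 74.7 CPM), and 16 were below. Both are receptor components for semaphorins. *Nrp2*, the close relative of *Nrp1*, had no UMI, against 89.6 CPM in the other neurons, and was at least 10.7-fold lower when a limit of 3 UMIs over the cluster is used. *Robo1* was at 108 ± 17.2 CPM against 1446 CPM. Of 54 synaptic organizers 4 were above and 16 below, the latter with *Cntnap2* at 1127 ± 330 CPM against 5752 CPM. Of 28 cadherins 2 were above, *Fat4* and *Cdh3*, and 5 below. Of 19 collagens *Col18a1* was above at 111 ± 27.7 CPM and 7 were below. The 12 lowest ratios belonged to *Grik1*, *Bcl11a*, *Gad2*, *Nrp2*, *Kcnq5*, *Nckap5*, *Mgat4c*, *Slc4a4*, *Gm48749*, *Pax2*, *4930444A19Rik* and *Nxpe4*, of which 9 had no UMI in the cluster. For *Bcl11a*, a zinc finger repressor, the deficit was at least 12.4-fold, and for *Gad2* at least 11.4-fold.

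The 3 clusters with the most similar profile were cluster 63 (Ebf2/Th, r = 0.50), cluster 129 (Bnc2/Ebf2, r = 0.45) and cluster 117 (Ebf2/Nmu, r = 0.42). These are Pearson correlations over 10327 genes of log levels centred over clusters, given as a description. The points share the 4 libraries, and the median over the other clusters was -0.04. All 4 clusters had *Ebf2* at 965 CPM or more, *Lmx1b* between 77.0 and 96.1 CPM and *Slc17a6* between 100 and 141 CPM. *Rxfp1* was at 22.7 CPM in cluster 63, 0 in cluster 129 and 140 CPM in cluster 117. *Th* was at 107 ± 30.3 CPM in cluster 63 and at 0 in clusters 129 and 117. *Cck*, *Kit*, *Pde11a* and *Calcrl* were high in clusters 146 and 129 and low in the other 2, with *Pde11a* at 381 and 350 CPM against 14.8 CPM in cluster 63 and 16.1 CPM in cluster 117. *Sst* was at 204 CPM in both clusters 146 and 117, 94.5 CPM in cluster 129 and 15.8 CPM in cluster 63. *Nts*, *Kcnh8* and *Adamtsl1* were shared with cluster 63, where they stood at 152, 763 and 899 CPM. *Lama4* exceeded 25 CPM in none of the other 3.

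**Figure D3:**
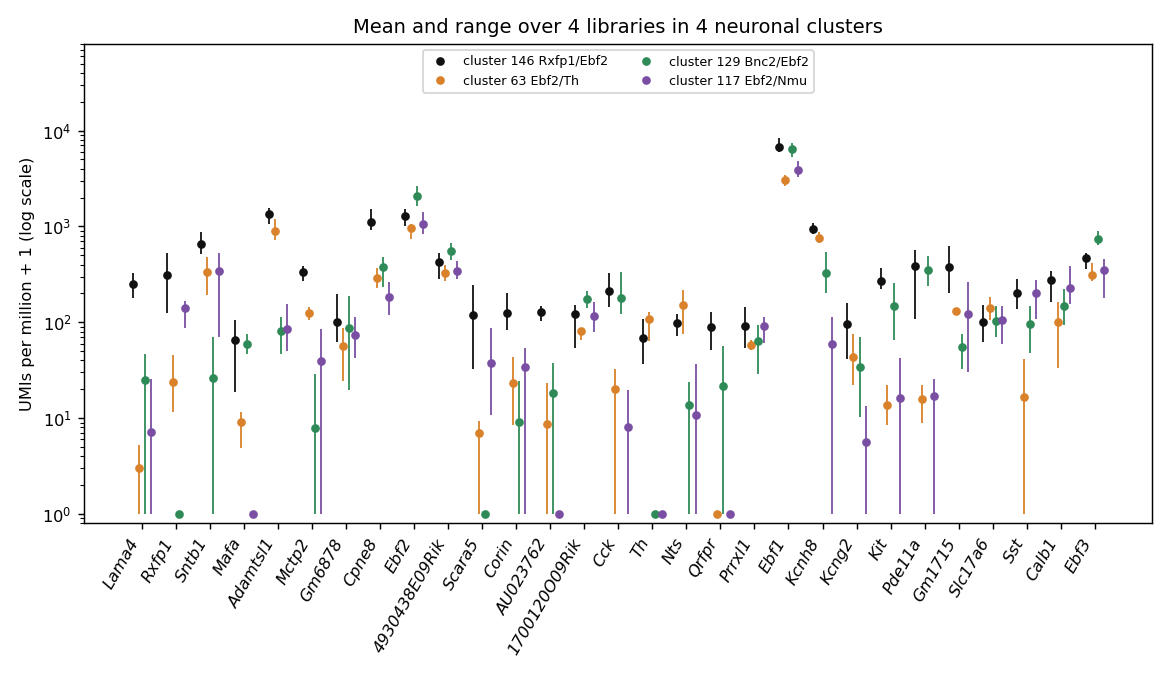
CPM + 1 (vertical log axis) of the 25 leading genes of the cluster and 4 further genes in cluster 146 and in the 3 most similar neuronal clusters, as the mean (points) and range (lines) over 4 libraries. Th is at 0 in clusters 129 and 117 and above 0 in clusters 146 and 63, and Lama4 is highest in cluster 146.

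The nuclei were also split by whether they had an *Nts* UMI. *Nts* was found in 16 of 58 nuclei, 2 of 9 and 4 of 8 in the controls and 3 of 15 and 7 of 26 in the AgRP-Gq;POMC-Gi libraries. Other genes were ordered by the ratio between the 16 nuclei with an *Nts* UMI and the 42 without, among genes found in at least 40% of either and with the same direction in 4 of 4 libraries. That agreement was a condition of the choice. This split and its genes were chosen after their values were seen and carry no test, and the median nucleus had 5053 UMIs with and 5917 UMIs without *Nts*. Splits by *Rxfp1* and *Th* made in the same way also gave such genes. Beside the splitting gene, ratios after adding 10 CPM reached 6.88 (*Gabrb2*) and 4.54 (*Creb3l2*), against 7.31 (*Fgf10*) for *Nts*. The lowest ratios were 0.280 and 0.221, against 0.0115 (*Galntl6*) for *Nts*. *Unc5d*, a netrin receptor, was found in 11 of the 16 nuclei with *Nts* and 5 of the 42 without, at 724 and 94.3 CPM. *Fgf10*, a growth factor, was at 422 and 49.1 CPM, *C1ql3*, a secreted synaptic organizer, at 303 and 34.0 CPM, *Zfpm2*, a cofactor of GATA proteins, at 411 and 64.1 CPM, and *Cntnap5c* at 2238 and 528 CPM. In the other direction, *Galntl6*, a glycosyltransferase, had 2 UMIs in nuclei with *Nts* and 726 in those without. *Pcdh9*, a protocadherin, was at 541 and 5188 CPM, *Chrm2*, a muscarinic receptor, at 43.3 and 464 CPM, and *Rorb* at 64.9 and 419 CPM. *Htr2c*, a serotonin receptor, had 0 UMIs with *Nts* and 73 without.

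Leading genes of the cluster differed in how they followed this split. *Rxfp1* was at 346 CPM with *Nts* and 294 CPM without, though higher with *Nts* in only 1 of 4 libraries, *Th* at 64.9 and 83.0 CPM, *Lmx1b* at 86.5 and 86.8 CPM, *Kcnh8* at 908 and 879 CPM and *Sst* at 238 and 185 CPM. *Ebf2* was at 1708 and 1207 CPM and *Calb1* at 400 and 238 CPM, both higher with *Nts* in 4 of 4 libraries. *Corin* was at 32.4 and 158 CPM and *Lama4* at 195 and 260 CPM, higher with *Nts* in 0 of 4 libraries. Cluster 63 had *Unc5d*, *C1ql3*, *Zfpm2* and *Cntnap5c* at 979, 427, 807 and 1786 CPM, as high as the nuclei with *Nts* or nearly so, and *Galntl6* at 294 CPM and *Rorb* at 0.527 CPM. *Fgf10*, in contrast, was at 38.7 CPM there. Not all of these levels were particular to cluster 63. In clusters 117 and 129 *Unc5d* was at 949 and 182 CPM, *Cntnap5c* at 1658 and 1647 CPM and *Zfpm2* at 16.6 and 27.5 CPM. Other genes of the split were mixed. Cluster 63 had *Vat1l*, *Ano1* and *Entpd3* at 334, 65.7 and 140 CPM, below the 768, 173 and 281 CPM with *Nts*. *Slc24a3* and *Thsd7b* stood at 889 and 993 CPM there, above the 411 and 227 CPM with *Nts*. Of genes lower with *Nts*, *Kctd16*, *Pcdh9* and *Kctd8* were at 877, 1668 and 38.1 CPM in cluster 63.

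**Figure D4:**
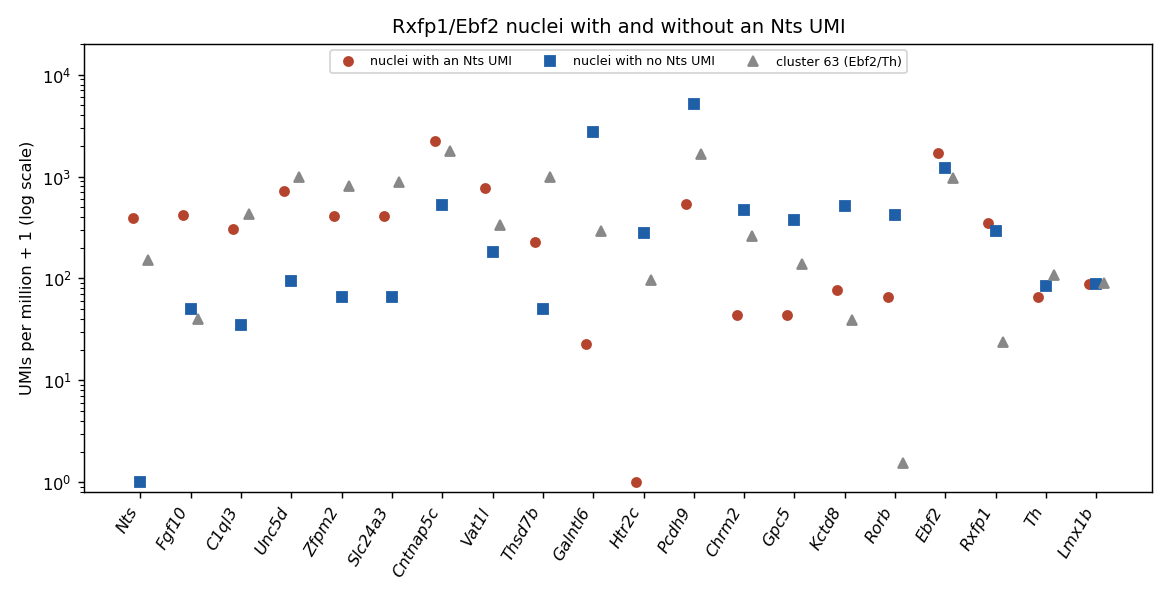
CPM + 1 (vertical log axis) of 20 genes in the 16 nuclei of the cluster with an Nts UMI (red), the 42 without (blue) and cluster 63 (grey triangles), UMIs pooled over libraries for the nuclei and averaged over libraries for cluster 63. The first 9 genes are higher and the next 7 lower in nuclei with Nts, and Rxfp1, Th and Lmx1b are close to equal.

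The share of neurons that belonged to the cluster was 0.364% (exact 95% interval 0.167 to 0.691%) and 0.292% (0.126 to 0.575%) in the controls, and 0.406% (0.227 to 0.668%) and 0.715% (0.467 to 1.05%) in the AgRP-Gq;POMC-Gi libraries. The lowest AgRP-Gq;POMC-Gi value exceeded the highest control value by little. With edgeR's quasi-likelihood test on nuclei per cluster, the log2 difference was 0.77 ± 0.67 (SE) with an adjusted p of 0.71 over 134 clusters, and 0 clusters (0%) were called. An exact two-sided permutation test gave p = 0.333, the smallest that 2 against 2 libraries allow. Neurons made up 25.4% and 27.2% of control nuclei and 38.0% and 36.5% of AgRP-Gq;POMC-Gi nuclei.

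Few genes were called between AgRP-Gq;POMC-Gi mice and controls within the cluster, and none of its 25 leading genes was. With 2 libraries a group and sums this small, genes that were not called are not shown to be alike in the groups. Of 10470 genes tested 6 (0.0573%) had an adjusted p under 0.05 by edgeR's quasi-likelihood test, 5 lower and 1 higher in AgRP-Gq;POMC-Gi mice, and 470 had an unadjusted p under 0.05. Without TMM factors 7 were called with 0 higher. The prior degrees of freedom of this fit were infinite, which means that 1 spread was used for all genes. With edgeR's bias-adjusted deviances, a form added after the data were seen, 0 genes were called and 471 had an unadjusted p under 0.05, and DESeq2 called 0 with 27. None were called without the 4 nuclei that lack an *Ebf2* UMI. Leaving out any 1 library, which leaves 1 library in its group, changed the set of called genes. Without the nuclei that lack *Ebf2* the log2 changes of the 6 genes kept their sign, at -4.72 for *Tafa1*, -1.66 for *Lrrtm4*, -1.92 for *Ptgds*, -4.46 for *Plcl1*, 2.24 for *Gm32647* and -1.99 for *Tsix*.

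Several of the 6 rested on single nuclei. *Tafa1*, a secreted chemokine-like protein, was counted 0 and 28 times in controls and 2 and 0 times in AgRP-Gq;POMC-Gi mice (log2 change -4.66 ± 0.76, adjusted p = 8.39e-06 by edgeR), and all 28 came from 1 nucleus. The SE of this change was 4.66 with DESeq2 and 1.69 with bias-adjusted deviances. *Lrrtm4*, a synaptic adhesion protein, had 33, 29, 14 and 16 UMIs (log2 change -2.07 ± 0.41, adjusted p = 0.00289 by edgeR). Its 29 UMIs in control replicate 2 came from the same nucleus, which also had 16 *Ebf2* UMIs. *Plcl1* had 10, 21, 0 and 13 UMIs, of which 20 of the 21 came from 1 nucleus. *Ptgds*, a prostaglandin synthase abundant in oligodendrocytes and meninges, had 19, 47, 12 and 26 UMIs, 40 of the 47 from 1 nucleus, and moved with the oligodendrocyte markers given above. Their part in the result was not tested. *Tsix*, the antisense partner of *Xist*, had 36, 7, 21 and 0 UMIs, and *Xist* itself 78, 27, 71 and 0. *Gm32647*, a noncoding transcript, was higher, at 907, 426, 1451 and 1719 CPM (log2 change 1.42 ± 0.32, adjusted p = 0.0184 by edgeR), and was found in 5 of 9, 4 of 8, 8 of 15 and 15 of 26 nuclei. In the controls 33 of its 51 UMIs and 11 of its 21 UMIs came from 1 nucleus each.

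The 25 leading genes had log2 changes between -0.87 and 1.47. The largest was that of *Pde11a*, at 107 and 345 CPM in the controls and 572 and 501 CPM in the AgRP-Gq;POMC-Gi libraries (log2 change 1.47 ± 0.41, adjusted p = 0.245 by edgeR). *Rxfp1* changed by 0.13 ± 0.40, *Ebf2* by 0.54 ± 0.30 and *Th* by 1.08 ± 0.75 on the log2 scale, with adjusted p of 0.993, 0.953 and 0.953 by edgeR. Of the gene lists, only the synaptic organizers held a called gene, *Lrrtm4*, 1 of 50 tested.

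Immediate early genes, which neurons transcribe within minutes of activation, were sparse. *Btg1* had 4, 2, 5 and 14 UMIs in the 4 libraries, or 71.1, 40.6, 53.0 and 88.8 CPM (log2 change 0.56 ± 0.75, adjusted p = 0.993 by edgeR). *Homer1* was at 107, 40.6, 21.2 and 44.4 CPM (-0.89 ± 0.83, adjusted p = 0.969 by edgeR). *1700016P03Rik* had 0, 1, 4 and 8 UMIs, or 0, 20.3, 42.4 and 50.8 CPM (2.34 ± 1.27, adjusted p = 0.953 by edgeR). *Nr4a1* had 1, 1, 2 and 5 UMIs, *Jun* 1, 0, 1 and 1, and *Junb* 0, 1, 0 and 3. *Fos* and *Fosl2* each had 2 UMIs in all, under the minimum of 5% of nuclei, and *Nr4a3* and *Gem* none. Of the 6 tested, 0 had an unadjusted p under 0.05, and the same held for the 4 that could be fitted with a negative binomial mixed model over nuclei. At these counts a change in these genes was not detectable unless large.

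**Figure D5:**
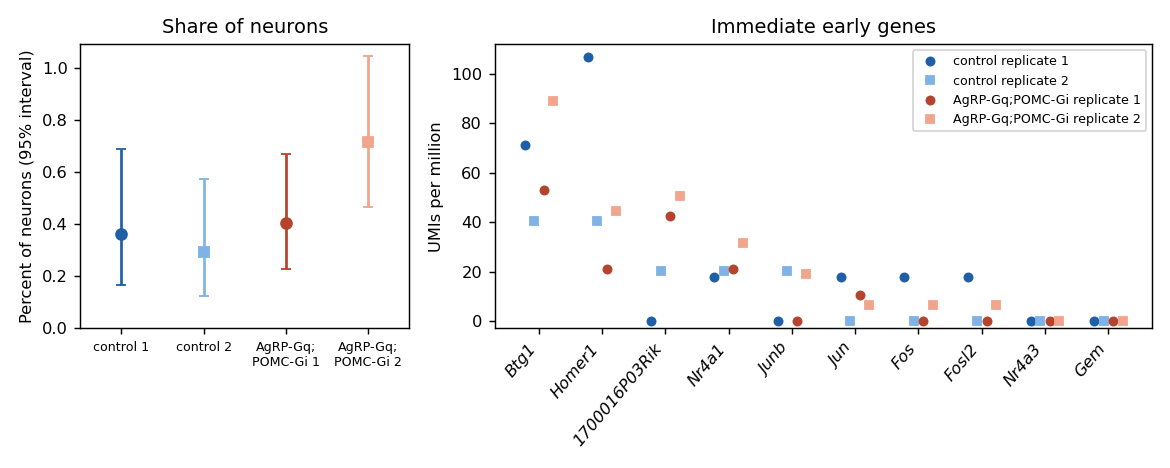
Left, percent of neurons in the cluster per library with exact 95% intervals. Right, CPM of the 10 immediate early genes per library. The intervals of the shares overlap, and Nr4a3 and Gem are at 0 in all 4.

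The change between groups was also compared with that in cluster 63, which shares *Ebf2*, *Th* and *Nts*. Of 11597 genes 4 (0.0345%) had an adjusted p under 0.05 for the difference of the group effect by edgeR, 3 with a more positive and 1 with a more negative change in the Rxfp1/Ebf2 cluster. The 3 were *Gm32647*, *Gm26871* and *Galntl6*, and the other was *Tafa1*. With bias-adjusted deviances 0 were called and 416 had an unadjusted p under 0.05. *Gm32647* was at 223, 172, 0 and 8.44 CPM in cluster 63, lower in the AgRP-Gq;POMC-Gi libraries, whereas in cluster 146 it was higher in them. In the controls of cluster 63 its UMIs lay in 2 of 34 and 2 of 17 nuclei. There 51 of 57 and 15 of 23 UMIs came from 1 nucleus each. The difference of its group effect was 6.24 ± 0.59 on the log2 scale (adjusted p = 2.80e-22 by edgeR). None of the 7 immediate early genes that could be tested was among the 4, with adjusted p of 1 for *Btg1*, *Homer1* and *Nr4a1* by edgeR. Their counts were too small for this test to decide whether the 2 clusters differ in them. *Nr4a1* was at 27.4 and 30.0 CPM in the controls and 85.6 and 71.7 CPM in the AgRP-Gq;POMC-Gi libraries of cluster 63, and at 17.8, 20.3, 21.2 and 31.7 CPM in cluster 146, and the difference in its change was -0.64 ± 1.53 on the log2 scale.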

How the data were processed

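Nuclei were isolated from pooled posterior hindbrains and sequenced as 4 libraries. The authors deposited raw UMI counts per gene and nucleus, with a table of quality calls, clusters and cell types for each nucleus. Per the labels' processing notes, Cell Ranger 7.0.0 and Seurat 4.3.0 were used with mouse genome GRCm38 (mm10). The authors removed nuclei of low quality and called doublets before clustering, and their calls were kept. The percent of mitochondrial UMIs per nucleus was computed by the authors in Seurat as part of that filter. Their activity scores were not used, and no per-sample column was left unused (0).

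UMI counts of cluster 146 were summed per library and given as CPM of the sum. Levels were compared with all other neurons as log2 ratios with 1 CPM added. Named genes were the 25 with the highest ratio among genes detected in 25% or more of the nuclei and above other neurons in 4 of 4 libraries, and the 12 with the lowest ratio among genes found in 25% of other neurons and below them in 4 of 4 libraries. Genes singled out in the split by *Nts* and those called between groups were named after their values were seen. The members, gene lists and tests were chosen with earlier results of these data known. Between groups, sums were tested with edgeR 4.0.16 (quasi-likelihood, TMM, Benjamini-Hochberg) in R 4.3.3, and again with DESeq2 1.42.0 and, for immediate early genes, glmmTMB 1.1.9. The difference to cluster 63 was an interaction term with library as a block. Both tests were tried on simulated data in which some genes were given a change. The group test missed most of these genes and the interaction test missed all of them. Neither called an unchanged gene, but the simulated sums had the same spread for every gene. They held no UMIs piled up in single nuclei, so they cannot show how often such genes are called falsely. Same-numbered libraries did not deviate together (correlation -0.00785 over 10470 genes), and the labels do not say that a number marks a shared batch. Coordinates are those of the GENCODE annotation of GRCm38, and promoters are from RefSeq GRCm38.p6. Depth was 49255 to 157634 UMIs per library in the cluster. Values of some single genes are not reported here.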

Additional observations from a re-analysis of the deposited data

Results flagged for a closer look

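For 4 genes the group effect differed between the Rxfp1/Ebf2 cluster and cluster 63 by edgeR's interaction test. For *Gm32647* the difference was 6.24 on the log2 scale (adjusted p = 2.80e-22 by edgeR), with 907, 426, 1451 and 1719 CPM in the Rxfp1/Ebf2 cluster (control replicates 1 and 2, then AgRP-Gq;POMC-Gi replicates 1 and 2) and 223, 172, 0 and 8.44 CPM in cluster 63. Its UMIs in the controls of cluster 63 lay in 2 of 34 and 2 of 17 nuclei, with 51 of 57 and 15 of 23 from 1 nucleus each. For *Tafa1* the difference was -4.59 (adjusted p = 1.59e-06 by edgeR), with 0, 568, 21.2 and 0 CPM against 2059, 1657, 1980 and 1766 CPM, and all 28 UMIs behind the 568 CPM came from 1 nucleus. For *Gm26871* it was 3.77 (adjusted p = 6.05e-04 by edgeR), with 747, 447, 1006 and 412 CPM against 94.0, 67.5, 0 and 6.33 CPM, and 14 of 24 and 6 of 9 UMIs in the controls of cluster 63 came from 1 nucleus each. For *Galntl6* it was 1.71 (adjusted p = 0.0261 by edgeR), with 3539, 711, 2468 and 1656 CPM against 274, 607, 128 and 165 CPM, and it fell to 0.15 (adjusted p = 1 by edgeR) without control replicate 2. *Gm26871* and *Galntl6* were also among the genes picked for their ratio between nuclei with and without *Nts*, a split chosen after the values were seen. The part of that split in the difference of the group effect was not tested.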

How the results depend on the processing

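The 65 genes at least 4-fold above other neurons became 28 when nuclei were thinned to 2000 UMIs, and were 66 to 85 without 1 library. The 6 genes called between groups became 0 with DESeq2, 0 with edgeR's filterByExpr (1425 genes tested), and, in alternatives chosen after seeing the data, 0 without the nuclei lacking *Ebf2* and 0 with bias-adjusted deviances, in both of which the 6 genes kept their sign. Without 1 library there were 0 to 12, namely 10 without control replicate 1, 12 without control replicate 2, and 1 and 0 without replicates 1 and 2 of AgRP-Gq;POMC-Gi. Of the 6 genes, *Tafa1* ranged from -7.47 to 2.96 without 1 library and reversed without control replicate 2. The ranges were -7.22 to -1.64 for *Plcl1*, -8.04 to -0.42 for *Tsix* and -2.44 to -1.01 for *Ptgds*. For *Lrrtm4* the range was -2.33 to -1.76, and for *Gm32647* 0.97 to 2.13. Without control replicate 2 *Plcl1*, *Ptgds* and *Gm32647* lost their calls (adjusted p = 0.813, 0.853 and 0.562 by edgeR), as *Tsix* did without control replicate 1 (adjusted p = 0.906 by edgeR), and *Gm32647* lost it without TMM factors (adjusted p = 0.127 by edgeR). The 4 genes of the interaction became 1 with DESeq2, 0 with bias-adjusted deviances and 2 to 14 without 1 library, and the *Tafa1* difference ranged from -8.23 to 3.86, reversing without control replicate 2, that of *Galntl6* from 0.15 (without control replicate 2) to 3.64 (without control replicate 1) that of *Gm26871* from 3.15 (adjusted p = 0.522 by edgeR, without AgRP-Gq;POMC-Gi replicate 1) to 7.22 and that of *Gm32647* from 5.97 to 8.89, the latter when AgRP-Gq;POMC-Gi replicate 2 was left out. *Galntl6* also lost its call without TMM factors (1.49, adjusted p = 0.162 by edgeR) and without the nuclei lacking *Ebf2* (1.70, adjusted p = 0.0712 by edgeR). The cause of these changes was not tested. The share of neurons kept its direction and stayed past no threshold in all alternatives, at 0.31 to 1.12 on the log2 scale without 1 library and 1.26 (adjusted p = 0.332 by edgeR) as a share of all kept nuclei, of which neurons were a larger part in AgRP-Gq;POMC-Gi mice.

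With the replicate block, 6 genes were called between groups, without *Tsix* (adjusted p = 0.201 by edgeR) and with 1 other gene, and the log2 difference of the share was 0.73. Over all genes the libraries of a number did not deviate together, although *Ttr* was high in both libraries numbered 2, and nothing more is drawn from the block. As to depth, 3 UMIs correspond to 19.0 to 60.9 CPM in a library for every gene of the cluster.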
